A study of Homo sapiens with 3 samples.

Results

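The genes of sterol and fatty acid synthesis described here are 32 genes chosen by name, of 18852 genes named on an Illumina HumanHT-12 v3 array. A member was represented by its brightest probe, under its current symbol or an older one (SC4MOL for MSMO1). A probe was named for 31 members, and FDFT1, squalene synthase, was not analysed here. Of these, 30 exceeded background on at least 1 array and were tested among 11945 genes, and 28 exceeded it on all 3 arrays. FADS2, a fatty acid desaturase, was not well above background on any array, with signals of 59.9 in clone 1, 58.7 in clone 2 and 59.5 in parental cells.

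The arrays compared 2 resistant lines with the line they came from, 1 array each. Clone 1 (HCC827-BR1) and clone 2 (HCC827-BR2) were grown from single clones of HCC827 after 3 to 4 months in rising concentrations of BIBW2992 up to 2 µM. This drug, also called afatinib, binds the kinases EGFR and ERBB2 covalently and blocks them. HCC827 is a human lung adenocarcinoma line that depends on mutant EGFR, and the parental array is of cells labelled sensitive to the drug. Whether the medium held drug when RNA was taken is not stated, and selection, cloning, time in culture and drug cannot be told apart. A lower signal from a bulk culture can be fewer cells with the RNA or less RNA per cell, which cannot be told apart either. Of 5 epithelial markers, KRT8, KRT19, EPCAM and CDH1 were above background on every array and KRT18 on none. EPCAM had signals of 1554 in clone 1 and 528 in clone 2, against 18523 in parental cells, and the lung factor NKX2-1 was above background in parental cells alone. No fibroblast or hepatocyte marker was above background, and CD14, PECAM1 and LEP were the detected members of the leukocyte, endothelial and adipocyte lists. The part of these marker differences in the results below was not tested.

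Cells make cholesterol and fatty acids from acetyl-CoA. Cholesterol is built through mevalonate, isoprenoid phosphates, squalene and lanosterol, and fatty acids through malonyl-CoA and then chain elongation and desaturation. Most of these enzymes are transcribed under the SREBP factors, encoded by SREBF1 and SREBF2. SCAP carries the SREBPs from the endoplasmic reticulum to the Golgi for cleavage, and INSIG proteins hold SCAP back when sterols are plentiful, so that INSIG1, itself a target of SREBP, is a sensitive readout of the pathway. EGFR signalling is known to promote SREBP-1 processing in glioblastoma.

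Most tested members had lower signals in the clones than in parental cells, by amounts that were small for most enzymes and large for the regulators INSIG1 and SREBF1. On the log2 scale the median difference of the 30 members was -0.22 in clone 1 and -0.44 in clone 2, against 0.0077 and 0.0067 over all genes tested. In clone 1, 22 members were lower than in parental cells by any amount, where 49.4% of all genes were. In clone 2, 27 were lower, where 49.5% of all genes were. The 27 include SREBF2, which was below background in clone 2 and in parental cells. Both counts use the same parental array, so they are not independent of each other. At least 2-fold lower were 3 members in clone 1 (7.29% of all genes) and 7 in clone 2 (8.15% of all genes). At least 2-fold higher were 0 members in clone 1 (6.93% of all genes) and 1 in clone 2 (6.75% of all genes). The plot of cumulative distributions shows the differences of every size, in each clone.

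**Figure D1:**
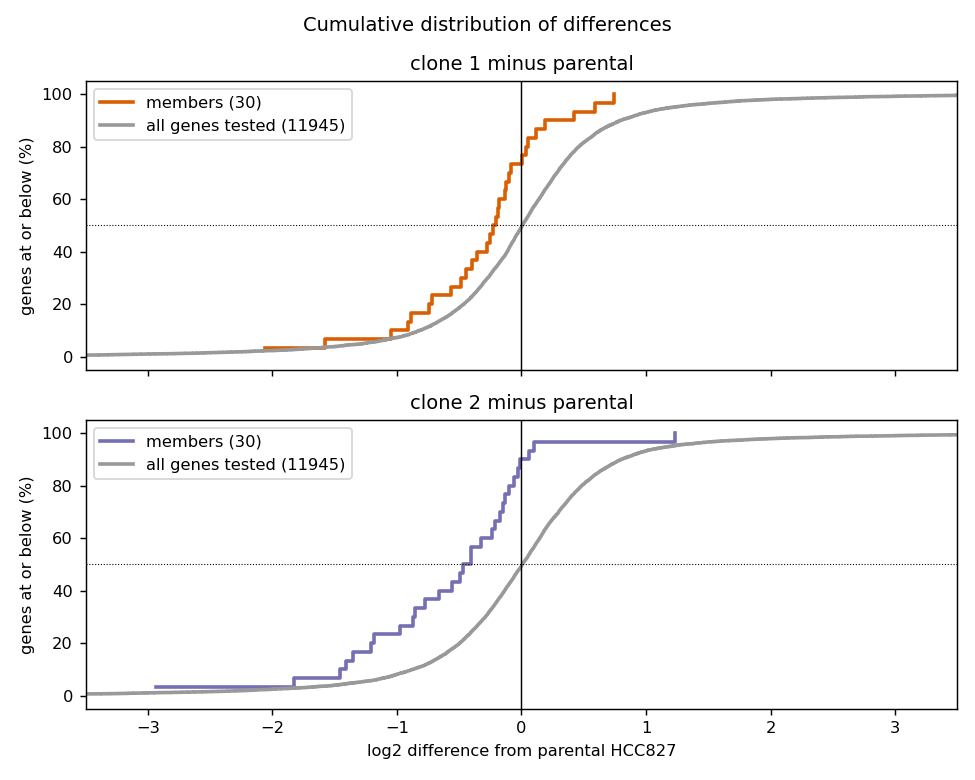
Cumulative share of genes (y axis, percent) at or below each log2 difference from parental HCC827 (x axis), for the 30 tested members (coloured) and for all 11945 genes tested (grey), in clone 1 (top) and clone 2 (bottom). The members' curve crosses the dotted 50% line near -0.22 in clone 1 and -0.44 in clone 2, left of the grey curve.

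Limma, with Benjamini-Hochberg adjustment over all genes, called 2 of the 30 members lower in the resistant clones, where it called 3.07% of all genes lower. It called 0 members higher, where it called 2.66% of all genes higher. At an unadjusted p under 0.05, 7 of the 30 members were lower, where 10.5% of all genes were, and 1 was higher, where 10.0% of all genes were. Of the 7 lower members, STARD4 entered the test through parental cells alone. The test has 1 residual degree of freedom, from the clones alone, and exact permutation of 2 arrays against 1 cannot give a one-sided p below 0.333. Both clones were at least 2-fold lower for 3 members, against 5.26% of all genes, and these were INSIG1, SREBF1 and STARD4.

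The strongest difference among the regulators was in INSIG1, which retains SCAP in the endoplasmic reticulum. Its signal was 952 in clone 1 and 548 in clone 2, against 4319 in parental cells. Both clones lay far below the parental array, and clone 2 was the lowest. INSIG1 fell in clone 1 by 4.16-fold and in clone 2 by 7.65-fold after normalization, with a mean log2 difference of -2.50 (SE 0.42, limma adjusted p = 0.0400). That put it at position 176 from the bottom among the 11945 genes. A second, dimmer INSIG1 probe put the log2 difference at -1.64 in clone 1 and at -2.46 in clone 2. The adjusted p ran up to 0.0536 over the settings tried, so the call is near its limit. INSIG2, its paralogue, whose transcription depends less on SREBP, had signals of 772 in clone 1 and 810 in clone 2, against 971 in parental cells, a mean log2 difference of -0.17 (limma adjusted p = 0.766).

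SREBF1 encodes SREBP-1, the factor that mainly drives fatty acid synthesis genes. Its signal was 350 in clone 1 and 414 in clone 2, against 1098 in parental cells. The clones lay close together and well below the parental array. In clone 1 SREBF1 fell 2.98-fold, and in clone 2 it fell 2.56-fold, with a mean log2 difference of -1.46 (SE 0.27, limma adjusted p = 0.0490). Its second probe gave -1.23 in clone 1 and -0.84 in clone 2. The adjusted p reached 0.0772 when the probes were averaged, which ends the call. SREBF2, whose product SREBP-2 mainly drives the sterol enzymes, was above background in clone 1 alone, with signals of 82.4 in clone 1, 66.4 in clone 2 and 66.8 in parental cells. It entered the test only through clone 1, and its level gives no comparison between clone 2 and parental cells. SCAP, the escort protein, differed little, with signals of 459 in clone 1 and 470 in clone 2, against 545 in parental cells (mean log2 difference -0.13).

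STARD4, which carries cholesterol between membranes, had signals of 58.1 in clone 1 and 53.6 in clone 2, against 101 in parental cells. It was above background in parental cells alone, and had entered the test through them. The level in the clones is therefore a bound: STARD4 was at least 1.36-fold lower, the lowest bound over the settings tried (1.65 in the setting reported here), and the fit did not call it (limma adjusted p = 0.0974). Its place among the members 2-fold lower in both clones rests on signals under the detection threshold.

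**Figure D2:**
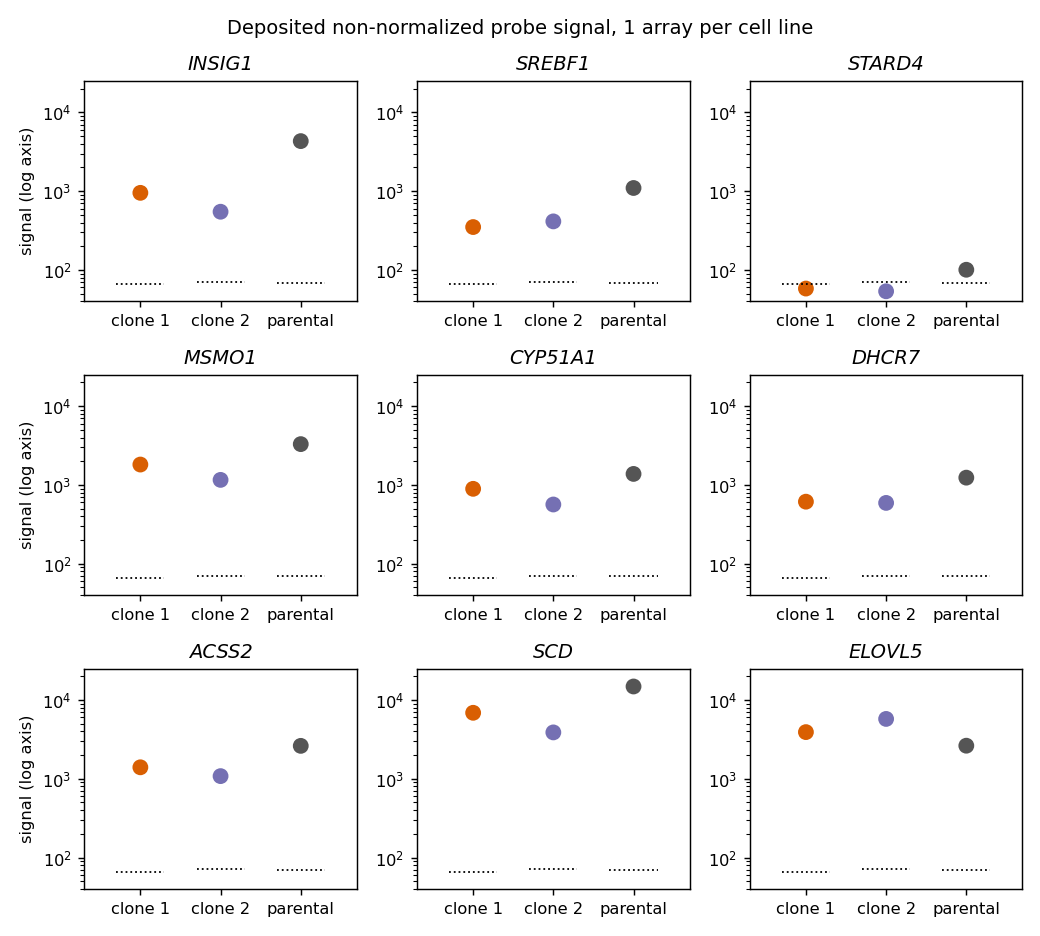
Deposited non-normalized signal (log axis) of 9 members in clone 1, clone 2 and parental HCC827, 1 array each, with the detection threshold of each array as a dotted line. INSIG1, SREBF1, MSMO1, CYP51A1, DHCR7, ACSS2 and SCD are lower in both clones than in parental cells, STARD4 is above its threshold in parental cells alone, and ELOVL5 is higher in both clones.

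The promoters of INSIG1, MSMO1, SCD and ELOVL5 are shown because these genes span the range of the members' differences. Each line holds the 250 bases before the gene's start in RefSeq on GRCh38.p14, read 5′ to 3′ on the gene's strand. INSIG1 lies at chr7:155297628-155297877 (+), MSMO1 at chr4:165327419-165327668 (+), SCD at chr10:100346983-100347232 (+) and ELOVL5 at chr6:53348951-53349200 (-). Capitals mark CCAAT, the box bound by NF-Y, a partner of SREBP, and TCACNCCA, the core of a sterol regulatory element, each on either strand (ATTGG is CCAAT on the other strand).
INSIG1: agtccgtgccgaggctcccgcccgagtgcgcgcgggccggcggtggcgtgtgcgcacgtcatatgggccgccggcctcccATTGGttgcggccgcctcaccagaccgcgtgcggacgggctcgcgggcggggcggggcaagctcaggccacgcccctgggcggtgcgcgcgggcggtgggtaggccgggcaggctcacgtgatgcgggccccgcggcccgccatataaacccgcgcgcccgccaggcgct
MSMO1: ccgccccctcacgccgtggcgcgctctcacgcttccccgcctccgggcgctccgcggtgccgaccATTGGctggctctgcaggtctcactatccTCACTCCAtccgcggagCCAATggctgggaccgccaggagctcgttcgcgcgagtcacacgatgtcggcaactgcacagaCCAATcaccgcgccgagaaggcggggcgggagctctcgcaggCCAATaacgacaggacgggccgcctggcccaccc
SCD: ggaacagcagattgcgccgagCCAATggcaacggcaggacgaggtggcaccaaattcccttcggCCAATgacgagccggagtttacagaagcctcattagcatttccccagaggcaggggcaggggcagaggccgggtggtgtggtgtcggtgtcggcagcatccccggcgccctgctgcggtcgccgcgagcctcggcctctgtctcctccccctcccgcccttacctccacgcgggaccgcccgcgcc
ELOVL5: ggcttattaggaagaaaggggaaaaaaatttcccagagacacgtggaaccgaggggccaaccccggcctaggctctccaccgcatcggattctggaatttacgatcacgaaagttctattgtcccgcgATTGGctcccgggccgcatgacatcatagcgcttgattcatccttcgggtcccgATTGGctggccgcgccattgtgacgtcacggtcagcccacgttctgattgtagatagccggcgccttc
The INSIG1 window holds 1 CCAAT box, 170 bases before the start. The MSMO1 window holds 4 boxes and 1 sterol element core, 156 bases before the start. SCD and ELOVL5, which differed from parental cells in opposite directions, hold 2 boxes each and no core. RefSeq windows were found for 28 members, with 38 windows in all. A CCAAT box stood in at least 1 window of 20 of these 28 members (71.4%), against 37.0% of 27305 genes, and the core in 3 of 28 (10.7%), against 3.92%. The members with a core were MVK, MSMO1 and SREBF2, and SREBF1 held neither motif in its window. These are matches of letters in a chosen gene list, not binding sites, and the list was not chosen independently of SREBP.

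Among the enzymes that supply acetyl-CoA and make mevalonate and isoprenoids, limma called 0 of 9 members. Of all genes it called 3.07% lower and 2.66% higher. By any amount, 6 of the 9 were below parental cells in clone 1, where 49.4% of all genes were. In clone 2 all 9 were, where 49.5% of all genes were. ACSS2, which makes acetyl-CoA from acetate, had signals of 1398 in clone 1 and 1081 in clone 2, against 2617 in parental cells. Both clones were lower: clone 1 by 1.68-fold and clone 2 by 2.28-fold (mean log2 difference -0.97, SE 0.31, limma adjusted p = 0.173). A second ACSS2 probe put the log2 difference at -0.81 in clone 1 and at -1.23 in clone 2. HMGCS1, which makes HMG-CoA, had signals of 1560 in clone 1 and 1089 in clone 2, against 2075 in parental cells (limma adjusted p = 0.424). MVD, the decarboxylase that forms isopentenyl diphosphate, had signals of 134 in clone 1 and 98.2 in clone 2, against 167 in parental cells. For both genes clone 1 lay nearer to parental cells than clone 2 did. FDPS, which makes farnesyl diphosphate, had signals of 345 in clone 1 and 357 in clone 2, against 472 in parental cells (mean log2 difference -0.34, SE 0.26). MVK, mevalonate kinase, had signals of 109 in clone 1 and 95.6 in clone 2, against 124 in parental cells. ACAT2, the cytosolic thiolase that joins acetyl-CoA units, had signals of 840 in clone 1 and 873 in clone 2, against 1065 in parental cells. The clones lay below parental cells for these 3 genes too, with no log2 difference lower than -0.41 (MVK in clone 2). IDI1, the isopentenyl diphosphate isomerase, had signals of 167 in clone 1 and 145 in clone 2, against 176 in parental cells (mean log2 difference -0.09). PMVK, phosphomevalonate kinase, had signals of 218 in clone 1 and 198 in clone 2, against 213 in parental cells. Its mean log2 difference of 0.09 became -0.0122 under median scaling.

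ACLY, which cleaves citrate to acetyl-CoA, had the largest gap between the clones among the tested members. Its signal was 7195 in clone 1 and 3592 in clone 2, against 6082 in parental cells. Clone 1 was higher than parental cells and clone 2 lower, at log2 differences of 0.42 and -0.66, a gap of -1.08 from clone 2 to clone 1. The second ACLY probe gave 0.05 in clone 1 and -0.91 in clone 2, so clone 2 was lower on both probes while the higher value of clone 1 was seen on the brightest. ACLY was the only tested member at least 2-fold apart between the clones, 1 of 30, where 3.78% of all genes were. The gap on its second probe was -0.96, under 2-fold. SCD (-0.92) and INSIG1 (-0.88) had gaps close to that. In 22 of the 30 members clone 2 was lower than clone 1, where 50.4% of all genes were, with a median log2 difference of -0.21 against -0.0033 over all genes. With 1 array of each clone there is no test of that difference.

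From squalene to cholesterol, limma called 0 of 9 tested enzymes, where it called 3.07% of all genes lower and 2.66% higher. In each clone 8 were below parental cells by any amount, where 49.4% (clone 1) and 49.5% (clone 2) of all genes were. MSMO1, which removes methyl groups at C4 of the sterol ring, had signals of 1817 in clone 1 and 1160 in clone 2, against 3300 in parental cells. It was 1.64-fold lower in clone 1 and 2.66-fold lower in clone 2 (mean log2 difference -1.06, SE 0.37, limma adjusted p = 0.201). A second MSMO1 probe gave nearly the same log2 differences, -0.75 in clone 1 and -1.50 in clone 2. CYP51A1, the lanosterol demethylase upstream of it, had signals of 894 in clone 1 and 565 in clone 2, against 1381 in parental cells (limma adjusted p = 0.297). NSDHL, which acts with MSMO1, had signals of 1082 in clone 1 and 894 in clone 2, against 1636 in parental cells (limma adjusted p = 0.318). In these 3 lanosterol demethylation enzymes the parental array was the highest and clone 2 the lowest.

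DHCR7, the last step to cholesterol in one branch of the pathway, had signals of 614 in clone 1 and 592 in clone 2, against 1238 in parental cells. The clones agreed closely, at 1.85-fold and 1.97-fold lower, and the adjusted p of 0.132 from limma came with a mean log2 difference of -0.93 (SE 0.26). Its second probe gave smaller log2 differences, -0.44 in clone 1 and -0.81 in clone 2. LSS, which folds squalene epoxide into lanosterol, had signals of 319 in clone 1 and 324 in clone 2, against 447 in parental cells (mean log2 difference -0.40, SE 0.26). HSD17B7, a ketosteroid reductase that takes part in removing the C4 methyl groups, had signals of 580 in clone 1 and 518 in clone 2, against 756 in parental cells. SC5D, a sterol desaturase, had signals of 805 in clone 1 and 802 in clone 2, against 999 in parental cells. EBP, a sterol isomerase, had signals of 204 in clone 1 and 214 in clone 2, against 243 in parental cells. All 4 were lower in both clones, with mean log2 differences from -0.40 (LSS) to -0.12 (EBP), and none was called. SQLE, squalene epoxidase, is a rate-limiting enzyme, and its signals were 1412 in clone 1 and 1398 in clone 2, against 1465 in parental cells. After normalization its mean log2 difference was 0.09, and its second probe gave 0.26. The 95% interval for SQLE ran from -0.57 to 0.75, and median scaling turned its mean to -0.0366, so no direction is given for it.

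**Figure D3:**
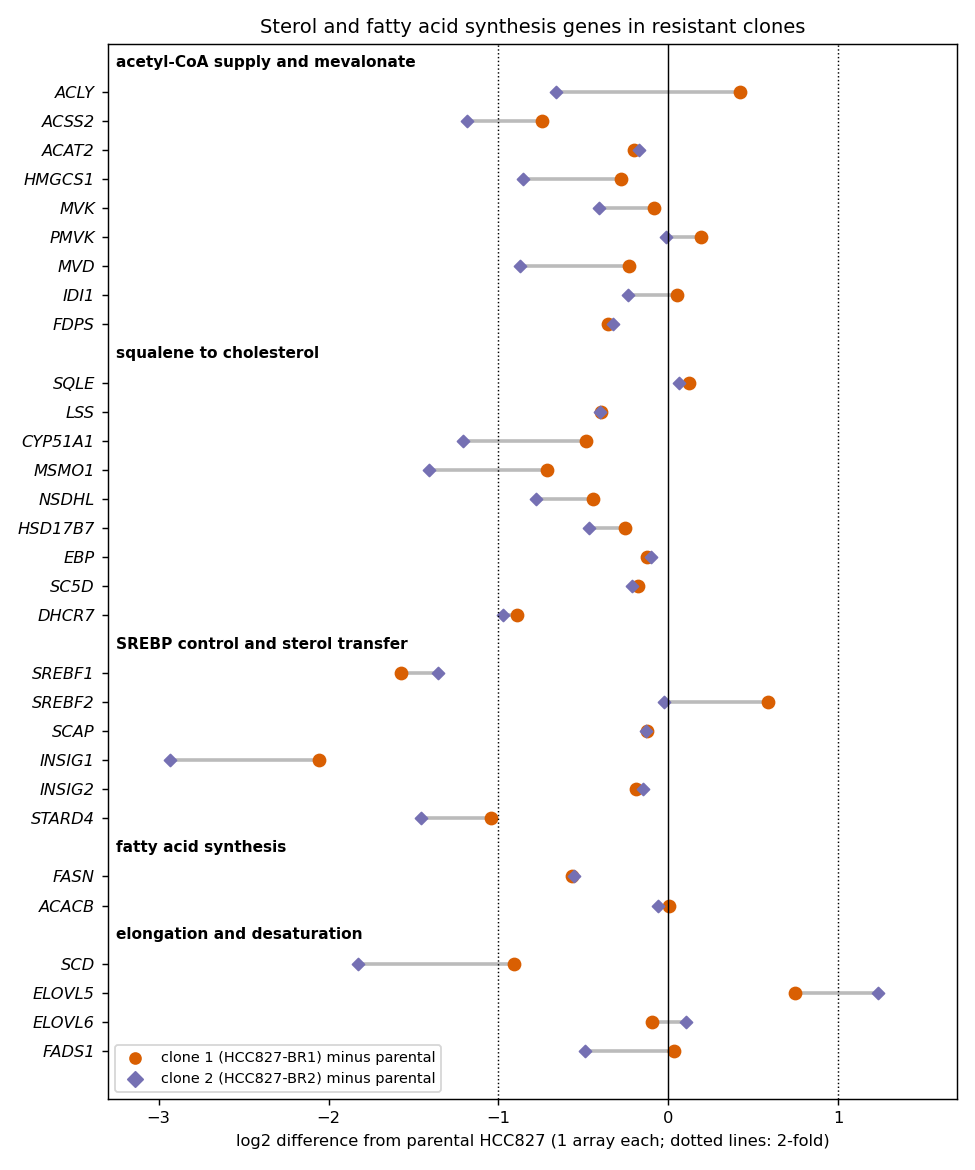
Log2 difference from parental HCC827 (x axis) of each of the 30 tested members in clone 1 (circles) and clone 2 (diamonds), grouped by role, with 1 array for each line and 2-fold marked by dotted lines. INSIG1, SREBF1 and STARD4 lie beyond 2-fold in both clones, ACSS2, CYP51A1, MSMO1 and SCD in clone 2 alone, and ELOVL5 lies on the other side of zero.

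Fatty acid genes were more mixed. FASN, fatty acid synthase, had signals of 4304 in clone 1 and 4464 in clone 2, against 7185 in parental cells. Clone 1 was 1.48-fold and clone 2 was 1.47-fold lower, with no call (mean log2 difference -0.56, SE 0.26, limma adjusted p = 0.307). ACACB, the acetyl-CoA carboxylase of the mitochondrial surface, had signals of 101 in clone 1 and 100.2 in clone 2, against 109 in parental cells (mean log2 difference -0.03).

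SCD, which places the first double bond in saturated fatty acids, had signals of 6878 in clone 1 and 3878 in clone 2, against 14838 in parental cells. Both clones were lower: clone 1 by 1.88-fold and clone 2 by 3.55-fold. SCD was not called (mean log2 difference -1.37, SE 0.44, limma adjusted p = 0.174). ELOVL5, which elongates polyunsaturated fatty acids, was the only member higher by at least 2-fold in a clone. Its signals were 3911 in clone 1 and 5749 in clone 2, against 2629 in parental cells, 1.68-fold higher in clone 1 and 2.35-fold higher in clone 2 (mean log2 difference 0.99, SE 0.32, limma adjusted p = 0.176). ELOVL6, which elongates saturated fatty acids and is a known SREBP-1 target, had signals of 1561 in clone 1 and 1855 in clone 2, against 1839 in parental cells. Its mean log2 difference was 0.00073, or -0.0889 under median scaling, with a 95% interval from -0.68 to 0.69. FADS1, the delta-5 desaturase, had signals of 895 in clone 1 and 648 in clone 2, against 972 in parental cells (mean log2 difference -0.23).

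Probes of the same member could be compared for 10 members with a second probe above background. The mean log2 differences of the probes had the same sign in all 10, ELOVL6 with its value near zero included, and were at most 0.45 apart, in INSIG1. For the pair of called genes the brightest probe gave the larger difference, so the sizes above are the upper of the values measured.

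**Figure D4:**
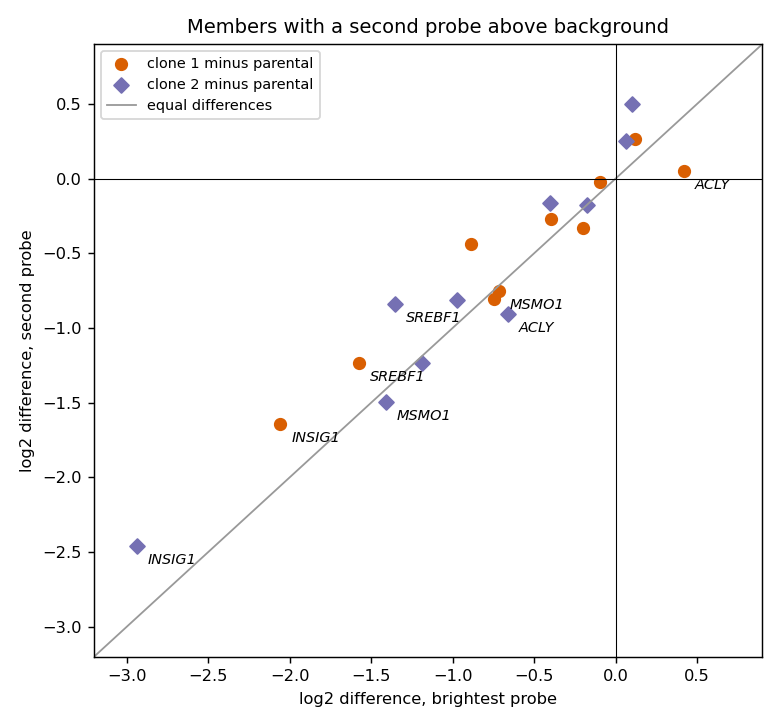
Log2 difference from parental HCC827 on the second probe (y axis) against the brightest probe (x axis) for the 10 members with a second probe above background, in clone 1 (circles) and clone 2 (diamonds), with the line of equal differences. INSIG1 and SREBF1 lie above the line, where the second probe shows the smaller decrease, and MSMO1 lies close to it.

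Other lipid genes, in 7 lists with 65 genes of which 52 were tested, are given beside the members. Their median log2 difference was 0.0021 in clone 1 and -0.0767 in clone 2. Limma called 2 of the 52 higher, where it called 2.66% of all genes higher, and 2 lower, where it called 3.07% lower. The other sterol enzymes tested were lower in both clones, with 0 of 3 called. TM7SF2, a sterol reductase after CYP51A1, had signals of 264 in clone 1 and 189 in clone 2, against 590 in parental cells, 2.62-fold lower on average (limma adjusted p = 0.102). LPIN1, a phosphatidate phosphatase and known SREBP target, was 2.60-fold lower on average without a call (limma adjusted p = 0.0678, down to 0.0457 over the settings tried).

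Called among these were ACACA, an enzyme of fatty acid synthesis outside the member list, and PPARGC1A, ACSL5 and MYLIP. ACACA, the cytosolic acetyl-CoA carboxylase that commits acetyl-CoA to fatty acids, rose 5.61-fold (3.97-fold with the mean of its probes). Its signals were 12734 in clone 1 and 17019 in clone 2, against 2987 in parental cells (limma adjusted p = 0.0154). ACACA lies on chromosome 17, and of the 5 tested genes nearest to it on each side in the RefSeq order, limma called 5 of 10 higher and 0 lower. These 5 lie in a row around ACACA (AATF, TADA2A, DUSP14, SYNRG and DDX52), at mean log2 differences up to 4.17, and were looked at after the value of ACACA was seen. The part of this run in the value of ACACA was not tested. PPARGC1A, a coactivator of oxidative metabolism, rose at least 5.51-fold, the lowest bound over the settings tried (9.22 in the setting reported here), with signals of 419 in clone 1 and 375 in clone 2, against 54.1 in parental cells, which were below background (limma adjusted p = 0.00528). ACSL5, a fatty acyl-CoA synthetase, fell 9.50-fold, with signals of 68.6 in clone 1 and 81.4 in clone 2, against 523 in parental cells (limma adjusted p = 0.00761). Its size depended on the background correction and on the probes: the fold was 6.03 with a normexp offset of 50 and 6.39 with the mean of its probes. MYLIP, which marks the LDL receptor for breakdown and is a known LXR target, fell 4.88-fold (3.26-fold with a normexp offset of 50), with signals of 73.1 in clone 1 and 72.6 in clone 2, against 272 in parental cells (limma adjusted p = 0.0144). The clone signals of ACSL5 and MYLIP lay close to the detection thresholds of 65.9 in clone 1 and 70.7 in clone 2. ACACA, ACSL5 and MYLIP kept a limma adjusted p under 0.05 in every setting tried. PPARGC1A entered the test only through the clones, where it was high, and was not tested with probes above background on all arrays. It kept a limma adjusted p under 0.05 in the other settings. CPT1A, which admits fatty acids to mitochondria, was 2.21-fold higher on average without a call (limma adjusted p = 0.0991). Its parental signal was 84.7, and its mean log2 difference of 1.14 was as low as 0.81 over the settings tried.

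**Figure D5:**
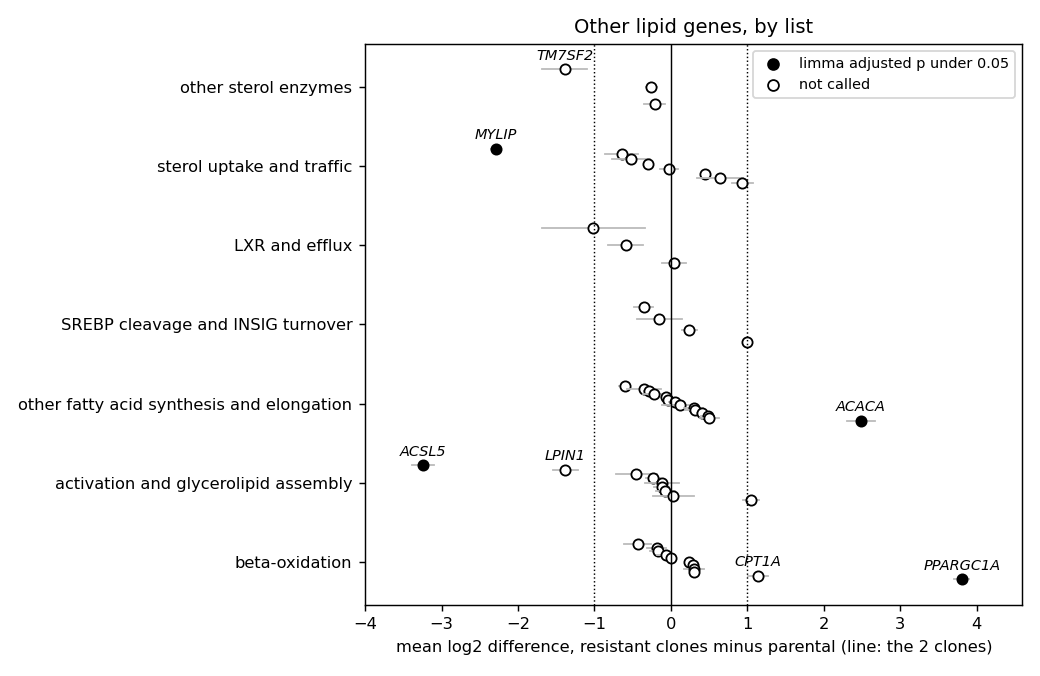
Mean log2 difference of the resistant clones from parental HCC827 (x axis) for 52 other lipid genes in 7 lists (rows), with a grey line between the values of the 2 clones, filled points for genes called by limma and open points for the rest. ACACA and PPARGC1A stand to the right, and ACSL5 and MYLIP to the left.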

How the data were processed

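Per the labels' protocols, total RNA from 3 lines was turned into biotinylated cRNA for Illumina HumanHT-12 v3 arrays. The deposited non-normalized table holds linear intensity for 48803 probes, not background-subtracted, with medians of 57.3 in clone 1, 61.2 in clone 2 and 60.4 in parental cells. A second deposited table of linear intensity, whose columns share one distribution, was used as an alternative; how it was normalized, and the bead summary, are not given in the sources used here.

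Signals were background-corrected by normexp (offset 16), log2-transformed and quantile-normalized. A probe exceeded background at a one-sided p under 0.01 against the mode and lower spread of its array's dim probes, above signals of 65.9 in clone 1, 70.7 in clone 2 and 69.0 in parental cells. Probes were named from the platform annotation (28098 with 1 gene, 13 with several, 20692 not listed), with symbols updated through RefSeq. Named probes above background on at least 1 array entered (15838), and the brightest stood for each gene. Resistant clones were set against parental cells by limma 3.58.1 in R 4.3.3 (lmFit, eBayes, prior of 4.08 degrees of freedom), with p-values adjusted over 11945 genes by Benjamini-Hochberg at a 0.05 threshold, after a check on simulated data. Where a probe was below background, a bound was set from the lowest normalized signal above background. Nothing in the labels says that the clones arose independently. The p-values set each difference against the spread between the 2 clones, shrunk toward that of all genes by the prior of 4.08 degrees of freedom. With 1 parental array, the spread of parental cells was not measured.

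Every member is named. Members, lists and tests were chosen with earlier results of these data known. Of the other lipid genes, those called or at least 2-fold off in both clones are named.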

Additional observations from a re-analysis of the deposited data

Results flagged for a closer look

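For 7 members the log2 differences of the clones from parental cells had opposite signs. The share of all genes with opposite signs was not counted. Some of these signs rest on values near zero, such as 0.0015 for ACACB in clone 1 and -0.0145 for PMVK in clone 2. SREBF2 was below background in clone 2 and in parental cells, so its sign in clone 2 gives no comparison. In ACLY the log2 difference was 0.42 for clone 1 but -0.66 for clone 2, and clone 2 minus clone 1 was -1.08. The same difference, clone 2 minus clone 1, was -0.61 in SREBF2, which was above background in clone 1 alone. It was -0.53 in FADS1, -0.29 in IDI1, -0.21 in PMVK, -0.0631 in ACACB and 0.20 in ELOVL6. With 1 array of each clone these differences were not tested.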

How the results depend on the processing

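The log2 medians of the members stayed negative in both clones under the 8 alternative settings, and 0 members were 2-fold higher in both clones in each. The number of members called, 2, became 1 with a normexp offset of 50 (INSIG1 lost, adjusted p = 0.0513), 1 with the mean of entering probes (SREBF1 lost, 0.0772), and 0 with probes above background on all arrays (INSIG1 at 0.0536, SREBF1 at 0.0587), where 292 of 9815 genes were called in place of 685 of 11945. Median scaling, which moved the median of all genes to -0.0817 in clone 1 and -0.0809 in clone 2, gave 5 members 2-fold lower in both clones in place of 3 (2 with no background correction, a normexp offset of 50, the authors' processed values or probes above background on all arrays) and turned PMVK to -0.0122, SQLE to -0.0366 and ELOVL6 to -0.0889, none of them called. Why the calls changed was not tested. Leaving out a clone leaves 1 array against 1 and no limma test; by size, 3 to 7 members were then 2-fold lower and 0 to 1 higher. No paired analysis was possible because there was 1 parental array for both clones. The number of arrays and, for STARD4, SREBF2 and FADS2, signal near background limit the precision.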
